A study of Mus musculus with 14 samples.

Results

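Ageing of haematopoietic stem cells (HSCs) that lack the adaptor protein Lnk was followed as the difference between 4 arrays from old mice (20 months) and 3 arrays from young mice (2 months), all of the genotype labelled Lnk-/-. The arrays were chosen by genotype and age in their labels, and they are 7 of the 14 arrays of the series. The other 7 came from wild-type mice of the same ages, 4 old and 3 young, and served here to set the change in Lnk-null cells beside the change in wild type. Each sample was bone marrow sorted, in a pair of rounds, for the CD150+CD48- LSK surface pattern, in which LSK stands for lineage-negative, Sca-1-positive and Kit-positive. Both Lnk-null groups lacked Lnk, encoded by Sh2b3, from the germline on. The strain, the sex and the number of mice behind an array are not given in the labels, which number the arrays of a group as biological replicates. Of 21225 probe sets, the 20239 that map to exactly 1 gene symbol were described.

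Lnk binds JAK2 and activated cytokine receptors and restrains the signals of thrombopoietin and of Kit ligand, and mice without it accumulate HSCs. Receptors of this kind pass their signal through JAK kinases to STAT transcription factors, whose targets include the SOCS inhibitors that shut the pathway off again. With age, HSCs become more numerous, give relatively more platelets and myeloid cells and fewer lymphocytes, and express more adhesion and platelet-type genes.

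The sex of the cells differed between arrays within the young Lnk-null group. Xist, a noncoding RNA expressed from 1 X chromosome in female cells, stood at 10.54 and 10.55 log2 units on young arrays 1 and 2 and at 3.61 on young array 3, and the mean of the Y-linked genes Uty, Kdm5d and Eif2s3y stood at 3.06, 3.00 and 7.22. On the 4 old Lnk-null arrays Xist did not exceed 4.03, and the Y-linked mean ranged from 7.02 to 7.30. The age difference against young arrays 1 and 2 is therefore also a difference in sex, and only young array 3 matches the old arrays in both measures. The wild-type groups were mixed too, since wild-type old arrays 1 and 2 and wild-type young array 1 carried both Xist (9.70, 8.47 and 9.89) and Y-linked signal (6.33, 7.06 and 6.59). Counts of called genes are given below for all arrays and again without young arrays 1 and 2, an alternative added after the data were seen. Uty was called with age and Kdm5d (2.38 ± 0.58, adjusted p = 0.061) and Eif2s3y (3.30 ± 0.84, adjusted p = 0.075) were not. Sh2b3 read 5.25, 5.42, 4.98 and 5.09 on the old and 4.91, 5.83 and 5.29 on the young Lnk-null arrays, below every wild-type array, and did not pass the test for age (-0.15 ± 0.18, adjusted p = 0.9). The sorted phenotype showed in its markers at both ages. The means of old and young arrays were 10.70 ± 0.05 and 10.60 ± 0.10 (SD) for Kit and 8.47 ± 0.11 and 8.43 ± 0.12 for the HSC regulator Mecom. The lineage genes Cd48 (2.85 ± 0.09 and 3.00 ± 0.21), Cd3e (3.86 ± 0.12 and 3.86 ± 0.17) and Ly6g (2.63 ± 0.13 and 2.60 ± 0.03) lay well below the array medians of 5.01 to 5.12.

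More genes rose than fell with age in cells without Lnk. limma's moderated test called 272 genes at an adjusted p under 0.05, which is 1.34% of the 20239 tested. Of these, 198 (0.978%) were higher in old cells and 74 (0.366%) were lower, and 107 differed at least 2-fold, 90 of them up and 17 down. In 270 of the 272 the 2 ages were fully separated, the exceptions being Uty and Enah, as they were in 9.93% of all genes, 4.94% with old above young and 4.99% with old below. The median age difference over all genes was -0.015 log2 units. At an unadjusted p under 0.05 limma held 1837 of the 20239 genes, the share to set beside such counts of lists below. In a principal component analysis of the 7 arrays alone the first component, with 34% of the variance, held the old arrays between -18.76 and -8.46 and the young arrays between 13.59 and 19.17. The second, with 18.1%, held young array 3 at -20.58, old array 2 at -13.41 and all other arrays between 3.44 and 11.34.

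The number of calls depended on young arrays 1 and 2. Without both arrays, 60 genes were called (0.296%), 45 higher and 15 lower, and 44 of them were among the 272. Both fits share 1 estimate of the spread over the 4 groups. With only 1 young array left the SE of each difference is larger, so calls are lost even where the difference is unchanged. Jak3, for example, differed by 0.48 log2 units from array 3 and from arrays 1 and 2, and lost its call. A lost call is therefore no measure of sex by itself. Against young array 3 alone, all 4 old arrays lay beyond it in the same direction for 271 of the 272 genes, Uty being the exception. Array 3 was among the arrays that called these genes, and the ages were separated in 270 of them. This count and the median that follows were therefore largely set by the choice of genes, and they do not show that sizes were free of sex. The median difference from array 3 was 99% of the difference from all 3 young arrays. In 6 genes it was under 50%, namely Uty (2.67 log2 units from all 3 and 0.12 from array 3), Lama5 (0.62 and 0.27), Cd86 (-0.83 and -0.37), Mgst1 (-1.09 and -0.54), Ifi27l2a (-1.06 and -0.42) and Ern1 (-0.75 and -0.18). Calls fell to 152 without young array 1 alone, 167 without young array 2 alone and 196 without young array 3 alone. Of 747 genes of the X chromosome 12 were called (1.61%), beside 1.34% of all genes.

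**Figure D1:**
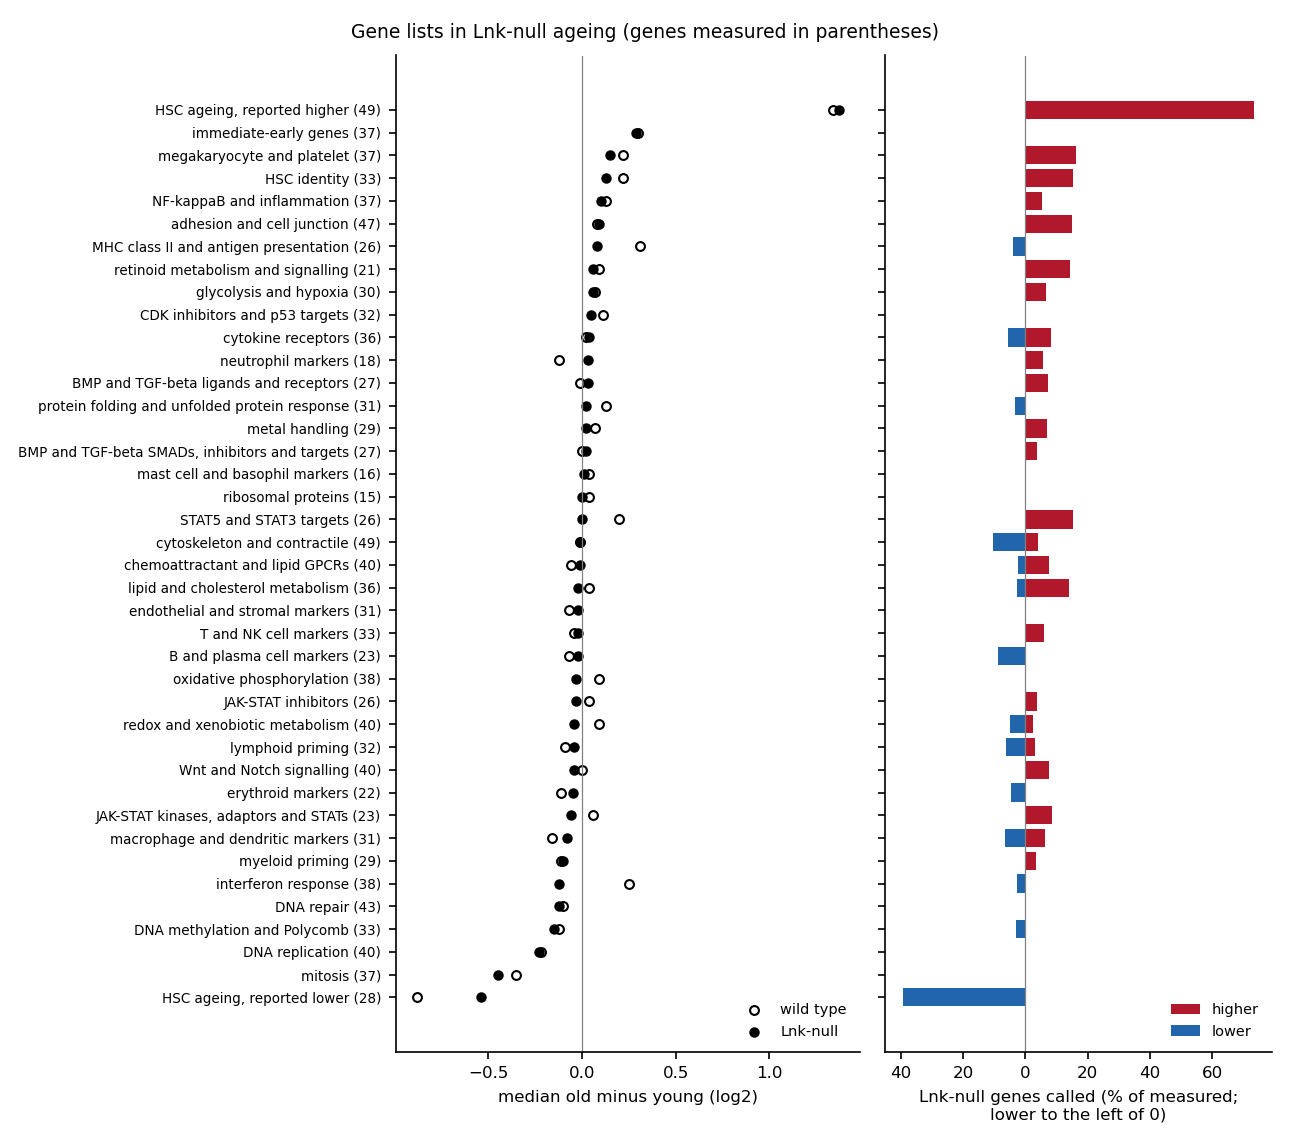
Gene lists in Lnk-null ageing. Left, the median old minus young difference (log2) of each list in Lnk-null (filled) and wild-type (open) cells, with the number of genes measured in parentheses. Right, the percentage of measured genes called higher (red) or lower (blue) in Lnk-null cells. Genes reported to rise with HSC age have the highest median (1.37) and those reported to fall have the lowest (-0.54). The medians of all other lists lie between -0.45 and 0.29. The lists were chosen with earlier results of these data known.

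The metallothioneins, small cysteine-rich proteins that bind zinc and copper and are induced by metals, glucocorticoids and cytokines, showed the highest rise of all. Mt2 read 9.36, 8.67, 9.47 and 9.56 on old arrays 1 to 4 and 5.78, 6.43 and 4.08 on young arrays 1 to 3. The lowest old array lay more than 2 log2 units above the highest young array, and the young array of matching sex was the lowest of the 3. The difference was 3.83 ± 0.43 log2 units (± SE here and below, adjusted p = 0.0001), a 14.3-fold rise. Its neighbour Mt1 read 10.07, 9.67, 10.19 and 10.18 in old and 8.53, 8.64 and 7.85 in young cells and rose 3.22-fold (1.69 ± 0.17, adjusted p = 4.1e-05). Both stayed called without young arrays 1 and 2, where the differences were 5.18 and 2.18. They were the only called members among 29 measured genes of metal handling, beside 1.34% of all genes. The median of the 29 was 0.02, and the zinc transporters and ferritins of the list did not pass. In wild type Mt2 rose by 5.01 and Mt1 by 2.46. Because the pair moved together, the 250 bases before each start site are shown, from RefSeq on build GRCm38.p6, with matches to the core of the metal response element (TGCACNC or TGCGCNC, both strands) in capitals.
Mt1 (chr8:94178839-94179088, plus strand): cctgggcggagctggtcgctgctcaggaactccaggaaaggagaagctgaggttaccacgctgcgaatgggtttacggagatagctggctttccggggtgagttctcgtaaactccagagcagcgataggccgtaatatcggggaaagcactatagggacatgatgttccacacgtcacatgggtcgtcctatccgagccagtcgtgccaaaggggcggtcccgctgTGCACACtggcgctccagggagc
Mt2 (chr8:94172368-94172617, plus strand): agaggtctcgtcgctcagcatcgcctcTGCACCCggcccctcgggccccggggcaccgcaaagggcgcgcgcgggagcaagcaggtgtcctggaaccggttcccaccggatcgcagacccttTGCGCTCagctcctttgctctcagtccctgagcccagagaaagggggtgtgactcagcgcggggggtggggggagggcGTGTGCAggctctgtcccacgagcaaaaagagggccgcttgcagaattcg
The window of Mt2 holds 3 matches and that of Mt1 holds 1, none overlapping another, and 21.4% of the 32851 promoter windows searched hold at least 1. The windows are placed by the annotated start sites, and bases outside them were not searched. The matches are therefore not a full count of the elements of either gene.

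Genes of very different functions made up the other large rises. Gpr183, a receptor for oxysterols that positions immune cells, read 8.23, 7.25, 8.11 and 7.58 in old and 5.34, 5.16 and 4.75 in young cells. Plscr2, a phospholipid scramblase that moves lipids between membrane leaflets, read 7.97, 8.09, 8.13 and 8.19 and 5.35, 5.68 and 5.56. Clca3a1, a secreted protein of the chloride channel regulator family, read 9.49, 9.37, 9.24 and 9.28 and 6.87, 6.95 and 7.02. In all 3 the groups were separated by more than 1 log2 unit, and the spread of the old arrays was widest in Gpr183. The rises were 2.71 ± 0.26 (adjusted p = 2.6e-05), 2.57 ± 0.16 (adjusted p = 2.7e-07) and 2.40 ± 0.11 (adjusted p = 3.1e-09), and all were called without young arrays 1 and 2. Selp, the adhesion molecule P-selectin of platelets and endothelium, read 9.77, 9.62, 9.92 and 9.74 and 7.55, 7.57 and 6.79 and rose 5.50-fold. Vldlr, a lipoprotein receptor that also binds reelin, read 8.74, 8.23, 8.36 and 7.77 and 6.07, 5.61 and 5.66 and rose 5.64-fold. Cd53, a tetraspanin of leukocytes, read 8.72, 8.77, 7.88 and 9.06 and 6.39, 6.38 and 6.11 and rose 4.99-fold. Selp and Vldlr were called without young arrays 1 and 2, and Cd53 was not. Young array 3 was the lowest young array in Selp and Cd53.

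Trac, Klrb1c, Zg16 and Cldn5 rose from young levels below the array medians, where array values are compressed, and are given as log2 differences only. Trac, which encodes the constant part of the alpha chain of the T cell receptor, read 7.15, 6.39, 5.78 and 5.96 in old and 3.46, 2.84 and 3.58 in young cells (3.03 ± 0.48, adjusted p = 0.0029). Klrb1c, the NK cell receptor NK1.1, read 6.91, 6.26, 7.23 and 5.95 and 4.41, 3.64 and 4.51 (2.40 ± 0.31, adjusted p = 0.0005). Zg16, a secreted lectin, read 6.17, 5.61, 6.18 and 5.89 and 3.49, 3.72 and 4.05 (2.21 ± 0.22). The groups did not overlap in any of these 3, and of them Zg16 was called without young arrays 1 and 2. Cldn5, the tight junction protein claudin 5, rose by 2.19 ± 0.29, with old array 2 at 5.65 and the other old arrays at or above 6.62, and lost its call without young arrays 1 and 2. The other large rises were those of Sbspon (2.17), the mucin Muc1 (2.04), the transcriptional cofactor Eya4 (1.94), Tmem215 (1.85), the cation channel Trpc1 (1.80), the stress protein Nupr1 (1.90), the glutathione transferase Gstm2 (1.90), the sulfotransferase Sult1a1 (1.81) and the dynamin Dnm3 (1.72). Of these 9 genes Muc1, Trpc1, Nupr1 and Gstm2 were also called without young arrays 1 and 2.

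**Figure D2:**
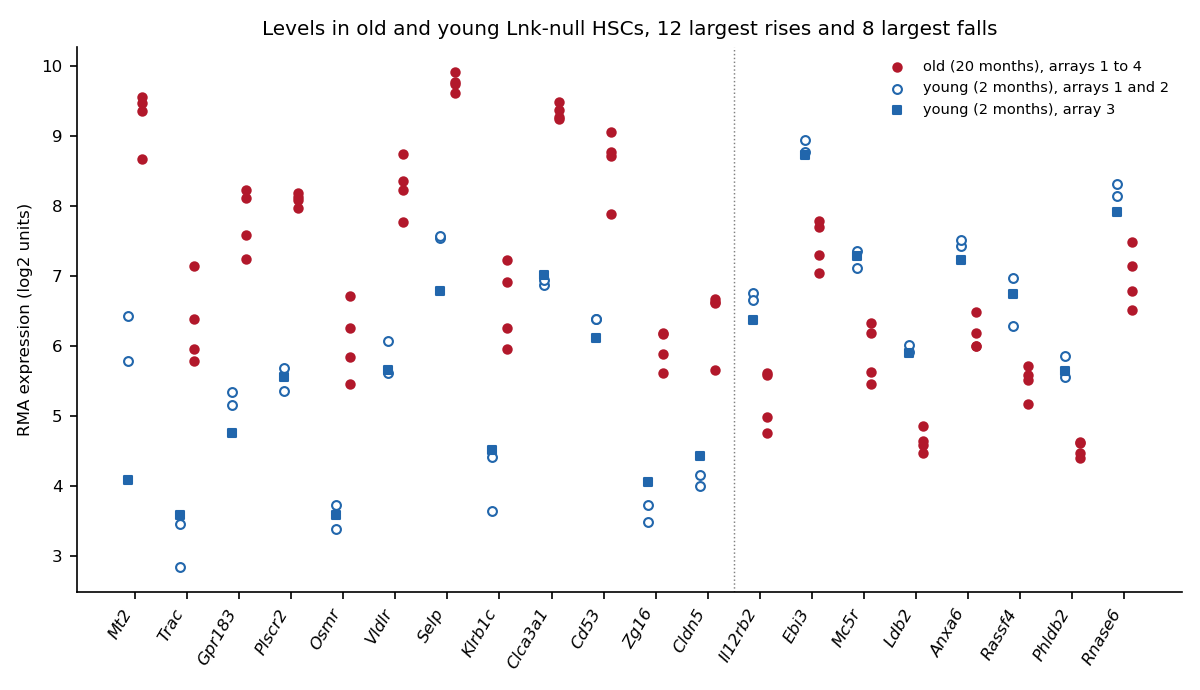
RMA expression (log2 units) on each Lnk-null array for the 12 largest rises (left of the dotted line) and the 8 largest falls. Old arrays are red, young arrays 1 and 2 open blue circles and young array 3 a blue square. In each of the 20 genes all old arrays lie on one side of all young arrays, and Mt2 spans the widest range of young values, from 4.08 to 6.43.

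The falls were smaller, 2.57-fold for the largest among named genes. Il12rb2, the signalling chain of the interleukin 12 receptor, read 4.99, 5.62, 4.75 and 5.58 in old and 6.76, 6.66 and 6.37 in young cells (-1.36 ± 0.21, adjusted p = 0.0021). Ebi3, a subunit shared by interleukins 27 and 35, read 7.04, 7.30, 7.70 and 7.78 and 8.95, 8.77 and 8.73 (-1.36 ± 0.24, adjusted p = 0.0059). Ldb2, a cofactor of LIM-domain proteins, read 4.47, 4.64, 4.58 and 4.86 and 5.91, 6.02 and 5.90 (-1.30 ± 0.13, adjusted p = 3.1e-05). The old arrays lay below all young arrays in these 3 genes, most tightly in Ldb2. The melanocortin receptor Mc5r (-1.35), the RAS-association protein Rassf4 (-1.17), the ribonuclease Rnase6 (-1.14), Rgs7bp (-1.12), which anchors regulators of G-protein signalling, the kinase Nrk (-1.10), the detoxifying enzyme Mgst1 (-1.09), the glutamate receptor Gria3 (-1.06), the interferon-inducible Ifi27l2a (-1.06), the chromatin organiser Satb1 (-0.92) and the glucuronosyltransferase Ugt1a7c (-0.91) also fell. Ldb2 and Gria3 were the only ones of the 16 largest falls called without young arrays 1 and 2.

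Among 36 measured cytokine receptors, 3 rose and 2 fell, where 0.978% of all genes rose and 0.366% fell, with a median of 0.04. Osmr, the receptor chain for oncostatin M, read 6.26, 5.45, 6.71 and 5.84 in old and 3.73, 3.39 and 3.59 in young cells and rose by 2.50 ± 0.31 (adjusted p = 0.00033). Il1r1, the signalling receptor of interleukin 1, read 7.64, 6.90, 6.66 and 6.85 and 5.51, 5.69 and 5.90 and rose 2.48-fold. Il10ra, a chain of the interleukin 10 receptor, read 5.23, 5.41, 5.48 and 5.04 and 4.06, 4.35 and 4.54 and rose by 0.97 ± 0.20 from a young level below the array medians. Every old array lay above every young array in all 3. Flt3, the receptor of lymphoid-primed progenitors, read 5.50, 5.31, 5.88 and 5.55 and 6.42, 6.04 and 6.39 and fell 1.65-fold, beside Il12rb2. Kit (0.10 ± 0.06), the shared chain Il6st through which OSMR signals (0.34 ± 0.11, adjusted p = 0.23) and Lifr (0.13 ± 0.11), which pairs with Il6st for other ligands, did not pass. No receptor was called without young arrays 1 and 2, without young array 1 alone 1 rose and 1 fell, and without young array 3 alone 3 rose and 1 fell.

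Downstream of the receptors, Jak3 and Stat3 were the members called among 23 measured kinases, adaptors and STATs, beside 1.34% of all genes. The median of the 23 was -0.06. Stat3 read 9.28, 9.20, 9.50 and 9.23 in old and 8.86, 8.85 and 8.96 in young cells (0.41 ± 0.08, adjusted p = 0.013). Jak3, the kinase of the common gamma chain, rose by 0.48 ± 0.09 (adjusted p = 0.0099). Both rises were under 1.5-fold, neither was called without young array 1 and 1 of them was called without young array 2. The kinase that Lnk binds, Jak2 (-0.08 ± 0.09), and the factors activated by thrombopoietin, Stat5a (-0.04 ± 0.10) and Stat5b (-0.01 ± 0.10), did not pass. Of 26 inhibitors Socs3, which blocks signalling through Il6st, was called, and it read 5.99, 6.07, 6.16 and 5.66 in old and 4.81, 4.70 and 4.85 in young cells, a rise of 1.18 ± 0.15 from a young level below the array medians (adjusted p = 0.00044). The STAT5-induced inhibitors stood on the other side of 0 and did not pass, Cish at -0.75 ± 0.27 (adjusted p = 0.31) and Socs2 at -0.56 ± 0.41 (adjusted p = 0.8).

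Of 26 targets of STAT5 and STAT3, 4 rose and none fell, where 0.978% of all genes rose and 0.366% fell, with a median of 0.00. Besides Socs3 these were the transcriptional repressor Bcl6 (1.33 ± 0.24), the NF-kappaB cofactor Bcl3 (1.23 ± 0.21) and the helix-loop-helix inhibitor Id2 (1.22 ± 0.28). Bcl6 read 6.69, 5.71, 6.61 and 6.0 in old and 5.2, 4.84 and 4.74 in young cells, and Bcl3 read 8.47, 8.17, 8.90 and 8.16 and 7.23, 7.04 and 7.31. None of the kinases, inhibitors or targets was called without young arrays 1 and 2, where the difference of Socs3 was 1.12 (adjusted p = 0.068). The levels of immediate-early genes, which respond to cell handling within minutes, are set beside these targets. Fos read 7.40, 8.75, 7.83 and 6.08 in old and 4.43, 6.67 and 5.93 in young cells (1.84 ± 0.57, adjusted p = 0.19). Jun (1.43 ± 0.38) and Egr1 (1.42 ± 0.36) did not pass either. The mean of the 37 immediate-early genes lay between 6.32 and 7.0 on old and between 6.03 and 6.40 on young Lnk-null arrays. limma called 0 of 37 (7 were called without old array 4, and 1 without wild-type old array 1). At an unadjusted p under 0.05 in limma stood 18 of the 37, a larger share than the 1837 of all 20239 genes. The part of immediate-early genes in the rises of Socs3, Bcl3 and Bcl6 was not tested.

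The 250 bases before the start sites of Socs3 and Bcl6, called targets whose windows hold a STAT motif, are shown from RefSeq on GRCm38.p6. STAT activity was not measured, and a part of Stat3 in these rises was not tested. Capitals mark matches to the STAT motif TTCNNNGAA, which reads the same on both strands.
Socs3 (chr11:117969367-117969616, minus strand): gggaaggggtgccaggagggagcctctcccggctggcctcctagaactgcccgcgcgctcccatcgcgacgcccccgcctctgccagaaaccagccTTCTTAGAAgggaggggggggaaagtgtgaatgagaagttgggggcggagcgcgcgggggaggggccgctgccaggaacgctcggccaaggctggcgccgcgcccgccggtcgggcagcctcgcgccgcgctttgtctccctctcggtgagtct
Bcl6, first start site (chr16:23988853-23989102, minus strand): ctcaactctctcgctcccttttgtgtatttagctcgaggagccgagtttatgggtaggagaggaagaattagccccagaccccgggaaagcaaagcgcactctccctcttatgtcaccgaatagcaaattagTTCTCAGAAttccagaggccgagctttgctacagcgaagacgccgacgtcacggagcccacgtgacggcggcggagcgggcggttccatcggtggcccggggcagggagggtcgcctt
Each window holds 1 match, the window of the second Bcl6 start site holds 3, and 7.02% of all promoter windows hold at least 1. The windows of Bcl3, Osmr and Stat3 hold these letters nowhere, and that of Id2 is not given here.

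**Figure D3:**
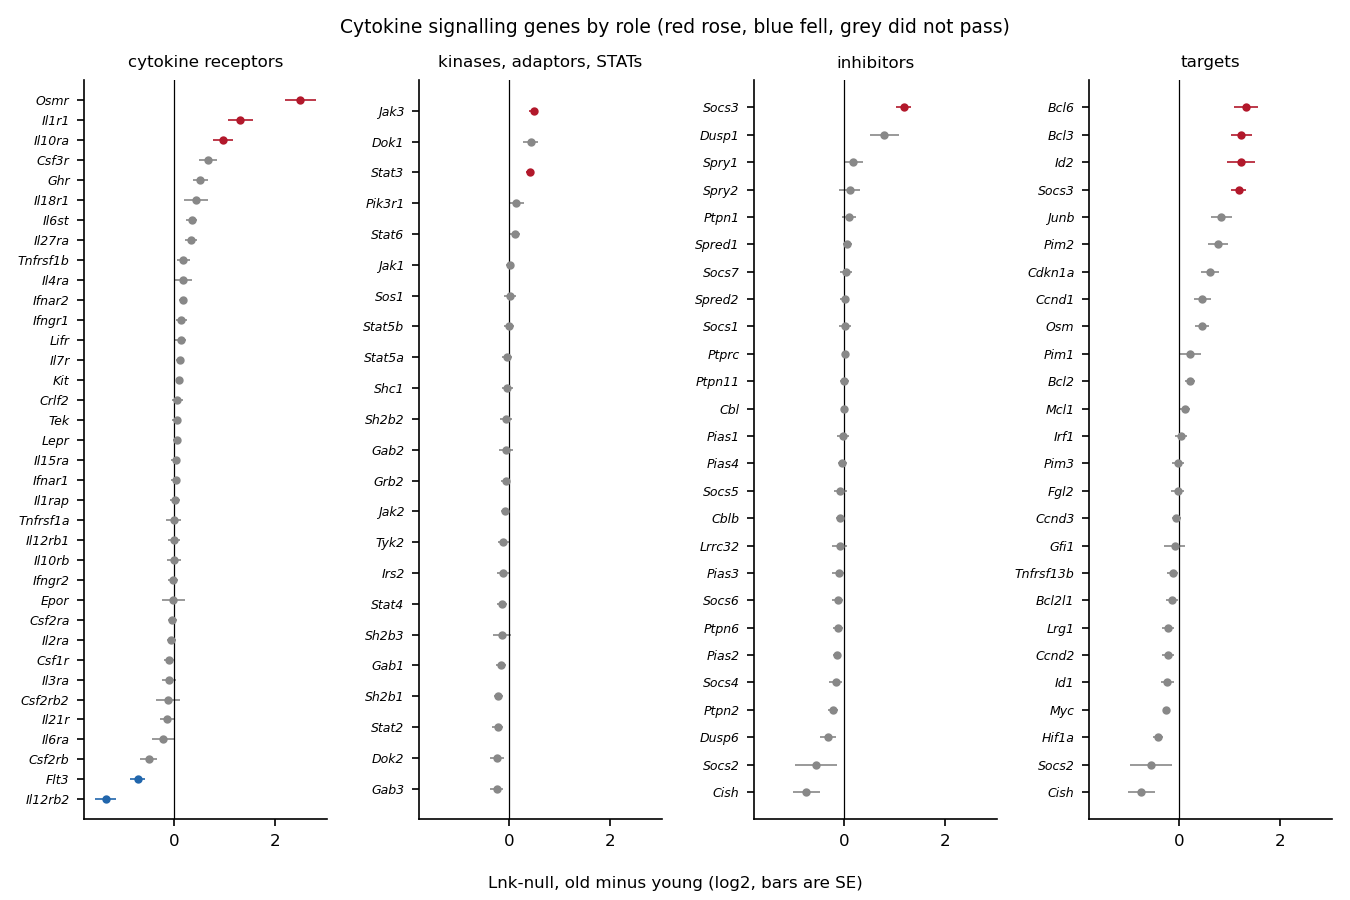
Old minus young difference (log2) in Lnk-null cells for cytokine receptors, JAK-STAT kinases, adaptors and STATs, inhibitors, and STAT5 and STAT3 targets, 1 row per gene with its SE. Genes that rose are red (Osmr at 2.50 is the highest), those that fell are blue (Il12rb2 at -1.36 is the lowest) and those that did not pass are grey, Jak2, Stat5a and Stat5b among them near 0.

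Of 27 measured ligands and receptors of the BMP and TGF-beta family, Bmpr1a and Neo1 rose and none fell. Among all genes 0.978% rose and 0.366% fell. Bmpr1a, which binds BMP ligands and phosphorylates SMAD proteins, read 6.76, 6.26, 6.44 and 5.99 in old and 4.57, 4.39 and 3.6 in young cells and rose by 2.18 ± 0.23 (adjusted p = 6.1e-05), with young array 3 the lowest of the young arrays. It stayed called without young arrays 1 and 2 (2.77). Neo1, which encodes neogenin, a receptor for netrins and repulsive guidance molecules, rose 2.29-fold and lost its call without them. The partner chain Bmpr2 (-0.13 ± 0.10) and the SMADs downstream, Smad1 (0.38 ± 0.11, adjusted p = 0.13) and Smad5 (0.02 ± 0.08), did not pass. Nor did the inhibitors Smad6 (-0.18 ± 0.12) and Smad7 (0.04 ± 0.14) or the target Id1 (-0.24 ± 0.13). Id2 was the called member among 27 SMADs, inhibitors and targets, and its call was lost without old array 1, 3 or 4, any 1 young Lnk-null array, wild-type old array 3 or wild-type young array 2.

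Retinoid genes rose in 3 of 21 cases, where 0.978% of all genes rose. Aldh1a1, which makes retinoic acid, rose 1.84-fold, Dhrs3, which turns retinal back to retinol, rose 2.26-fold, and Rarb, a retinoic acid receptor that is itself induced by retinoic acid, rose 2.77-fold. Rarb read 7.69, 7.47, 7.86 and 7.40 in old and 6.18, 5.87 and 6.35 in young cells, and Dhrs3 read 8.20, 8.47, 8.06 and 7.91 and 7.36, 6.80 and 6.78. The old arrays lay above the young in each, and Aldh1a1 and Dhrs3 were called without young arrays 1 and 2. Of 40 genes listed for Wnt and Notch 3 rose, the secreted Wnt inhibitor Sfrp1 (1.19 ± 0.20), the YAP paralog Wwtr1 (1.01 ± 0.19) and the Notch target Hes1 (0.86 ± 0.17). The median was -0.04, and none was called without young arrays 1 and 2.

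Platelet and megakaryocyte genes rose in 6 of 37 cases and fell in none, where 0.978% of all genes rose, at a median of 0.15. They were Selp, the caveola protein Cavin2 (1.41 ± 0.11), clusterin (Clu, 1.67 ± 0.16), the fibrinogen receptor chain Itgb3 (1.41 ± 0.13), the LIM protein Fhl1 (0.90 ± 0.17) and von Willebrand factor (Vwf, 0.88 ± 0.13). Vwf read 8.57, 8.76, 8.32 and 8.72 in old and 7.52, 7.99 and 7.62 in young cells, and Itgb3 read 8.69, 8.78, 9.08 and 8.52 and 7.21, 7.49 and 7.37. All 4 old arrays lay above the young in both. In the fit without young arrays 1 and 2, 5 of the 6 were called, Fhl1 excepted (adjusted p = 0.054). In bulk samples a larger share of platelet-primed HSCs and more of these RNAs in each cell cannot be told apart.

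Of 33 genes of HSC identity, 5 rose and none fell, where 0.978% of all genes rose and 0.366% fell, at a median of 0.13. Slamf1, which encodes the sorted marker CD150, read 9.0, 8.69, 8.45 and 8.83 in old and 8.17, 8.15 and 8.17 in young cells, a 1.49-fold rise within a gate that selects for it. Sult1a1, Trim47 (1.09 ± 0.21), the mucin Muc13 (0.43 ± 0.09) and keratin 18 (Krt18, 0.47 ± 0.10) were the others. The endothelial protein C receptor Procr (0.72 ± 0.30, adjusted p = 0.45), Mecom (0.04 ± 0.10) and Hlf (-0.12 ± 0.12) did not pass, and Cd34, whose product marks multipotent progenitors, stood at -0.52 ± 0.13 (adjusted p = 0.064). None was called without young arrays 1 and 2, 1 was called without young array 1 or 2 alone, and 2 were without young array 3 or old array 1.

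Genes reported to rise in aged HSCs, a list recalled from earlier studies, rose in 36 of 49 measured cases at a median of 1.37, and 19 of them were called without young arrays 1 and 2. This list and that of reported falls were chosen with earlier results of these data known, so their counts are no independent check. The clearest rises by p were Clca3a1, Plscr2, Enpp5 (1.36 ± 0.10), Cavin2, Aldh1a1 and Nupr1. Of 28 genes reported to fall, 11 fell at a median of -0.54, among them Il12rb2, Rassf4, Rnase6, Rgs7bp, Nrk and Gria3. That count was 7 without young array 1 and 1 without young arrays 1 and 2. Lymphoid priming genes fell in 2 of 32 cases, Flt3 and Satb1, and rose in 1, the transcription factor Ets1 (0.63 ± 0.15), where 0.366% of all genes fell and 0.978% rose. Satb1 read 4.28, 4.46, 4.50 and 4.27 in old and 5.3, 5.06 and 5.52 in young cells. Without young array 1 or 3 no lymphoid gene fell, without old array 1 or 4 the falls numbered 1, and Ets1 lost its call without old array 1, 2 or 3, any 1 young Lnk-null array, wild-type old array 3 or 4 or wild-type young array 2. Of 29 myeloid priming genes, Prtn3, a granule protease, rose (0.93 ± 0.18), and the median was -0.10. No myeloid gene was called without young array 1 or 2 alone, and 2 were without old array 2. No lymphoid or myeloid priming gene was called without young arrays 1 and 2 together.

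Cell surface and adhesion genes rose in 7 of 47 cases with no fall, where 0.978% of all genes rose and 0.366% fell, at a median of 0.09. Besides Selp, Cd53, Cldn5 and Itgb3 these included the junction molecule Jam2, which read 7.77, 7.76, 7.96 and 7.89 in old and 6.20, 6.20 and 5.90 in young cells, a 3.35-fold rise, and the activated leukocyte adhesion molecule Alcam (1.37 ± 0.22). Without young arrays 1 and 2, 3 were called. Of 49 genes of the cytoskeletal list 5 fell and 2 rose, at a median of -0.01. Anxa6, a calcium-dependent membrane binder, fell by 1.23 ± 0.18, the microtubule anchor Phldb2 by 1.16 ± 0.15, tropomyosin 2 (Tpm2) by 1.14 ± 0.19 and the nonmuscle myosin heavy chain Myh10 by 0.91 ± 0.16. The list also counted Ldb2, a cofactor of LIM-domain proteins and not a cytoskeletal protein. Tpm2 read 4.90, 4.07, 4.61 and 4.21 in old and 5.91, 5.58 and 5.27 in young cells. The small GTPase Rhoj rose by 0.99 ± 0.11, beside Fhl1, and 1 cytoskeletal gene rose without young array 3. Without young arrays 1 and 2 Ldb2 was the only member of the list that stayed called. Of 40 genes listed as chemoattractant and lipid receptors, Gpr183, the prostaglandin E receptor Ptger4 (0.99 ± 0.21) and the adhesion receptor Adgrl4 (0.70 ± 0.11) rose. The melanocortin receptor Mc5r fell, though not without young array 1 or 3. Adgrl4 and Mc5r were counted in the list but are not receptors of those kinds. Gpr183 alone stayed called without young arrays 1 and 2.

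Lipid genes rose in 5 of 36 cases and fell in 1, where 0.978% of all genes rose and 0.366% fell, at a median of -0.02. Plscr2 and its neighbour Plscr1 (0.79 ± 0.10), Vldlr, lipoprotein lipase (Lpl, 1.05 ± 0.18) and Cpt1a (0.46 ± 0.09), which admits fatty acids to mitochondria, rose. Scd2, a desaturase that makes monounsaturated fatty acids, fell by 0.66 ± 0.13. Lipid genes that fell numbered 0 without old array 1 or any 1 young Lnk-null array, 2 without wild-type old array 3 or 4 and 3 without wild-type young array 1. All but Cpt1a and Scd2 were called without young arrays 1 and 2. Of 40 redox and xenobiotic genes Sult1a1 rose and Mgst1 and catalase (Cat, -0.36 ± 0.08) fell, with 1 fall left without young array 2 or any 1 old Lnk-null array and none without young array 1. No redox gene was called without young arrays 1 and 2 together. The stress-induced Hmox1 read 4.90, 4.61, 5.11 and 4.67 in old and 5.90, 5.28 and 5.23 in young cells and did not pass (-0.65 ± 0.18, adjusted p = 0.12). In glycolysis and hypoxia, 2 of 30 rose, the hypoxia-induced Ndrg1 (0.63 ± 0.11) and phosphofructokinase Pfkp (0.43 ± 0.09), and 1 did without old array 3 or 4 or young array 1 or 3, and none without young arrays 1 and 2. The stress sensor Ern1, 1 of 31 genes of protein folding, fell by 0.75 ± 0.16, lost its call without old array 1, 3 or 4, young array 1 or 2 or both, and is among the 6 genes whose difference was below 50% against young array 3. Oxidative phosphorylation genes (0 of 38, median -0.03) and ribosomal protein genes (0 of 15, median 0.00) did not pass in limma's test, 0 of them at an unadjusted p under 0.05, and their members ranged from -0.16 to 0.16 and from -0.07 to 0.12.

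Cell cycle genes stood below 0 in old cells as a group, without any passing the test. All 37 mitosis genes lay below 0, between -0.73 and -0.15, at a median of -0.45. limma called 0 of them (1 was called without old array 1 or 2). At an unadjusted p under 0.05 in limma stood 10 of the 37, beside 1837 of all 20239 genes. Mki67, a proliferation marker, read 8.11, 8.59, 7.41 and 8.24 in old and 8.61, 8.87 and 8.14 in young cells (-0.45 ± 0.26, adjusted p = 0.68), so the groups overlapped. The size depended on the young arrays, since against young array 3 alone the median was -0.12. DNA replication genes behaved likewise (0 of 40 called, 7 at an unadjusted p under 0.05, median -0.23, and -0.04 against young array 3). DNA repair genes had a median of -0.12 (0 of 43 called, 4 at an unadjusted p under 0.05), which was 0.02 against young array 3. Of 32 CDK inhibitors and p53 targets limma called none, with 8 at an unadjusted p under 0.05 (1 was called without wild-type old array 2). Cdkn1a stood at 0.61 ± 0.18 (adjusted p = 0.14), Cdkn1c at 0.01 ± 0.18 and the senescence gene Cdkn2a at 0.16 ± 0.12. Of 33 genes listed for DNA methylation and Polycomb only the chromatin organiser Satb1 was called. Satb1 is neither a DNA methylation enzyme nor a Polycomb subunit, so no gene of those kinds was called. It was not called without old array 1, young array 1 or young arrays 1 and 2 together. Of the 33, 11 had all old arrays below all young (4.99% of all genes did), and the median was -0.15.

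No interferon or antigen presentation gene was called higher, where 0.978% of all genes were called higher and 0.366% lower. Of 38 interferon response genes 25 lay below 0 at a median of -0.12, and the guanylate-binding protein Gbp9 fell (-0.83 ± 0.17, adjusted p = 0.022). No interferon gene was called without old array 1 or 2 or young array 1 or 2, and 3 fell without old array 4 and 2 without young array 3. None was called without young arrays 1 and 2 together. Against young array 3 alone the median was 0.14, so its sign rests on young arrays 1 and 2. Of 26 antigen presentation genes the lysosomal protease Ctss fell (-0.85 ± 0.16), though not without young array 1 or without young arrays 1 and 2, and none rose. H2-Aa, an MHC class II chain, read 8.62, 9.08, 9.15 and 9.39 in old and 8.75, 8.72 and 8.05 in young cells and did not pass (0.56 ± 0.23, adjusted p = 0.44), nor did H2-Ab1 (0.54 ± 0.22), H2-Eb1 (0.80 ± 0.23) or the invariant chain Cd74 (0.64 ± 0.26). In each young array 3 was the lowest, so the difference against it was larger (1.02 in H2-Aa), and H2-Eb1 passed in the fit without young arrays 1 and 2 (adjusted p = 0.047). In NF-kappaB and inflammation 2 of 37 rose, Bcl3 and the inhibitor Nfkbia (0.55 ± 0.12), and 1 did without old array 2 or 3 or any 1 young Lnk-null array, and none without young arrays 1 and 2.

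Markers of other cell types were examined because Trac and Klrb1c mark T and NK cells. These 2 were the called members among 33 T and NK markers, beside 1.34% of all genes. The mean of the 33 lay between 4.04 and 4.18 on old and between 3.88 and 4.06 on young arrays. The defining T cell genes were near the low end at both ages. Cd3e (0.00 ± 0.12), Cd3d (-0.07 ± 0.08), Cd3g (0.01 ± 0.09), Cd4 (-0.20 ± 0.13) and Cd8a (-0.07 ± 0.12) did not pass. Of 31 macrophage and dendritic markers the protease Lgmn (0.74 ± 0.17) and the lectin Clec9a (1.2 ± 0.16) rose, Ctss and Flt3 fell, and the list mean lay between 4.14 and 4.18 in old and between 4.15 and 4.28 in young cells. Of 23 B and plasma cell markers Bank1 (-0.48 ± 0.08) and Cd37 (-0.73 ± 0.15) fell (means 4.06 to 4.11 and 4.07 to 4.16). Of 22 erythroid markers Rhag fell (-0.63 ± 0.13, means 5.23 to 5.50 and 5.36 to 5.70), and of 18 neutrophil markers Prtn3 rose (4.15 to 4.21 and 4.06 to 4.38). None of 16 mast cell and basophil markers (4.86 to 4.96 and 4.86 to 4.92) or of 31 endothelial and stromal markers (4.49 to 4.53 and 4.49 to 4.61) passed in limma's test, 1 and 5 of them being at an unadjusted p under 0.05. Of these marker lists the T and NK list kept its count of 2 without any 1 array, whereas without young array 1 the macrophage list held 1 call, the B cell list 1 and the erythroid and neutrophil lists 0. Without young arrays 1 and 2 no marker of these lists was called, Trac having an adjusted p of 0.19 and Klrb1c of 0.078. The part of such cells in the rises of Trac and Klrb1c was not tested.

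Most of these changes were shared in direction with wild type, whose groups hold the 3 arrays of mixed Xist and Y-linked signal and whose age comparison uses none of the same arrays. In wild type 668 genes were called (3.30%), 454 higher (2.24%) and 214 lower (1.06%). That count was 382 without wild-type young array 1, 411 without wild-type old array 3, 440 without wild-type young array 3 and 443 without wild-type old array 4. It was 231 without the 5 arrays with Xist signal and 50 with the SD of each array's values as a covariate, a fit that called 264 genes in Lnk-null cells, so the sizes of the 2 lists are not compared. Of the 272 genes of Lnk-null ageing 186 were called in the same direction in wild type, which is 68.4% of the Lnk-null list and 27.8% of the wild-type list, and none was called in the opposite direction. Both shares rest on the list of 668 and would move with it. Among the genes that rose the median was 0.93 in Lnk-null and 0.82 in wild-type cells, and among those that fell it was -0.69 and -0.45. These medians favour the genotype in which the genes were called. In 9 genes the wild-type difference had the opposite sign, namely Il10ra, Meg3, Camk2n1, Cyp51, Stard4, Gbp9, Akr1c13, Hspb8 and Lbr, and none of these wild-type differences was called.

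The difference between the age changes, tested as an age by genotype interaction, passed in 1 gene of 20239 (0.00494%), Aldh1a1. In Lnk-null cells Aldh1a1 read 10.01, 10.01, 10.02 and 10.05 in old and 9.12, 9.31 and 9.0 in young cells. In wild type it read 9.96, 10.08, 10.09 and 9.95 and 8.10, 8.11 and 8.20. The old arrays of both genotypes lay together, whereas every young Lnk-null array lay above every young wild-type array. The rise was 0.88 ± 0.07 in Lnk-null and 1.88 in wild-type cells, a difference of -1.0 ± 0.10 (SE, adjusted p = 0.00061). It was not called in the interaction without the 5 arrays that carry Xist or with the SD of each array's values as a covariate. At an unadjusted p under 0.05 the interaction held 1452 genes.

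The next called genes by the size of the interaction statistic did not pass it. Meg3, a long noncoding RNA, read 8.16, 7.49, 8.13 and 6.80 in old and 5.56, 5.25 and 5.97 in young Lnk-null cells, and 8.05, 6.84, 7.78 and 6.94 and 7.38, 7.84 and 7.35 in wild type. The young Lnk-null arrays stood below all 11 others, and the interaction was 2.18 (adjusted p = 0.35). Cyp51, an enzyme of cholesterol synthesis, fell by 0.80 ± 0.15 in Lnk-null cells and stood at 0.28 in wild type (interaction -1.08, adjusted p = 0.33). Flt3 fell by 0.73 in Lnk-null and by 1.66 in wild-type cells (interaction 0.93, adjusted p = 0.37). Gbp9 (-1.12), Plscr2 (-0.92), the ubiquitin-activating enzyme Uba7 (-0.45), the lamin B receptor Lbr (-0.45), the leukotriene receptor Cysltr2 (-0.70) and the sterol carrier Stard4 (-0.68) had interaction adjusted p-values between 0.39 and 0.53. Their own age differences in Lnk-null cells were -0.83, 2.57, 0.38, -0.37, 1.22 and -0.51. Among uncalled genes of interest, H2-Aa differed in its age change by -1.59 (adjusted p = 0.33) and Hmox1 by 1.26 (adjusted p = 0.33).

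**Figure D4:**
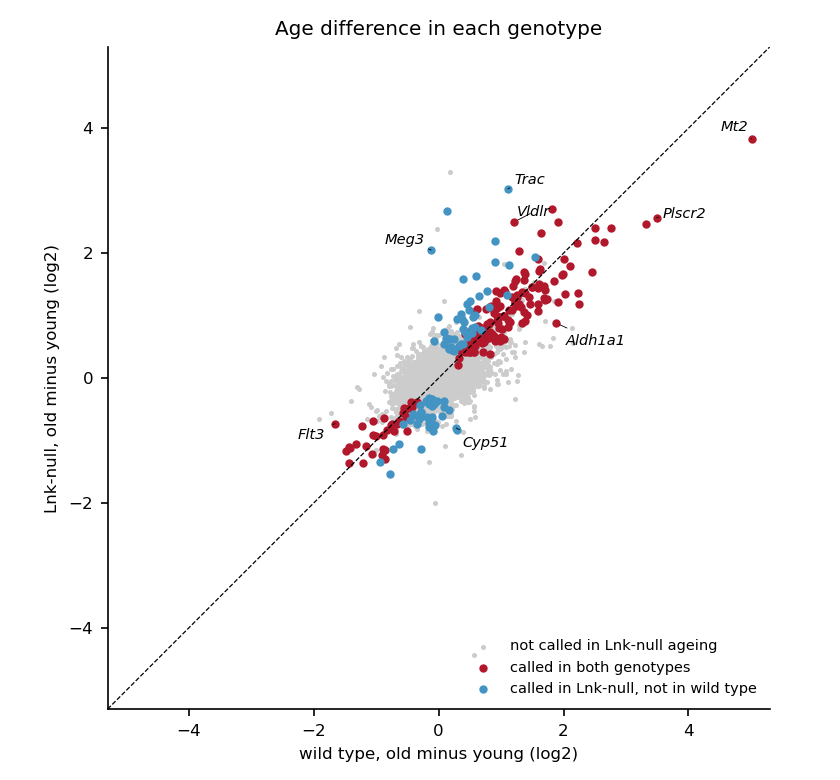
Old minus young difference (log2) in wild-type (horizontal) and Lnk-null (vertical) cells for 20239 genes, with the line of equal change dashed. Red genes were called in both genotypes, blue genes in Lnk-null ageing and not in wild type, and grey genes were not called in Lnk-null ageing. Aldh1a1, at 1.88 in wild type and 0.88 in Lnk-null cells, is the gene called in the interaction.

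**Figure D5:**
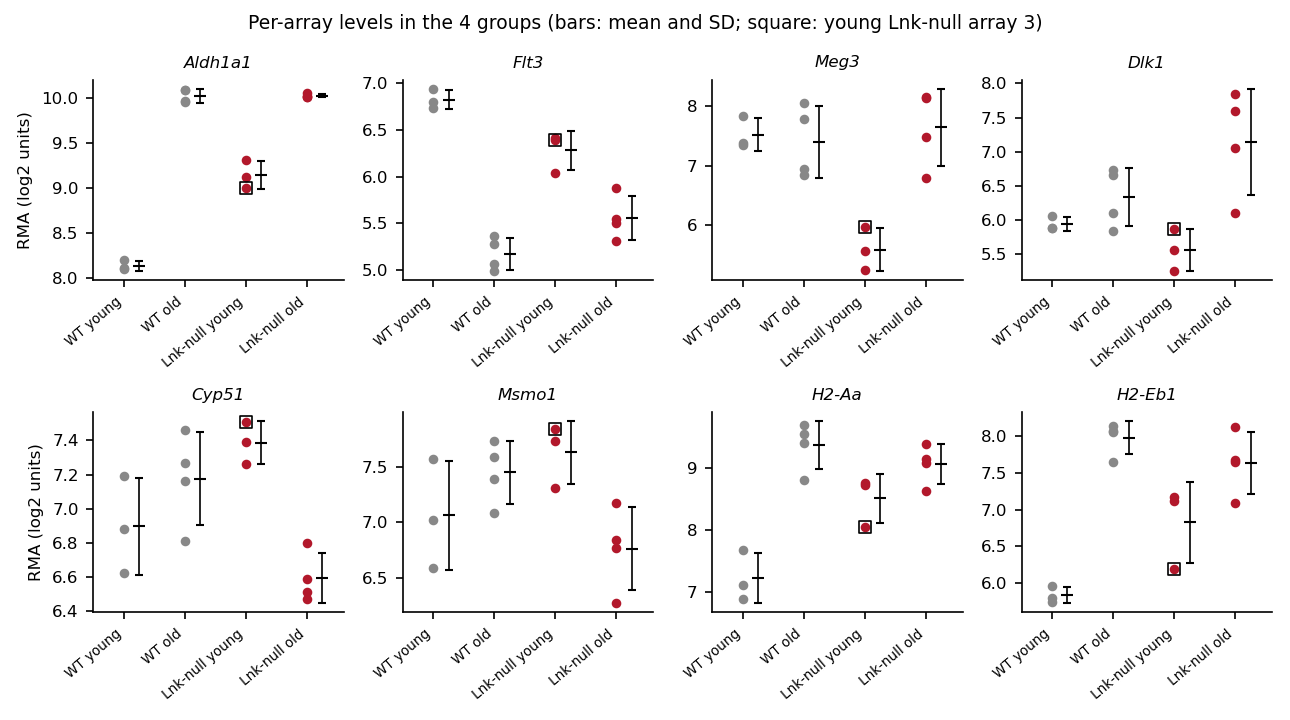
RMA expression (log2 units) on every array of the 4 groups for Aldh1a1, Flt3, Meg3, Dlk1, Cyp51, Msmo1, H2-Aa and H2-Eb1, with group mean and SD, the square marking young Lnk-null array 3. Each panel has its own scale. For Aldh1a1 the old groups overlap, while the young groups do not, and for Cyp51 the old Lnk-null arrays lie below all young Lnk-null arrays.

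The calls at the threshold had these values. Just inside were the scaffold protein Sdcbp (0.32 ± 0.08), the muscarinic receptor Chrm3 (1.51 ± 0.36) and the glycoprotein-binding Mlec (-0.54 ± 0.13), with adjusted p-values of 0.048 to 0.050. Just outside were the integrin chain Itga4 (-0.42 ± 0.10), the chemokine Cxcl17 (-0.46 ± 0.11) and Il1rapl2 (0.84 ± 0.20), all at 0.050 after rounding. Of 536 long noncoding RNA genes 6 were called (1.12%), Meg3 being the one with a gene name of its own, and of 307 microRNA genes limma called none, with 13 at an unadjusted p under 0.05.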

How the data were processed

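RNA of sorted bone marrow HSCs was amplified by the NuGEN Pico method and hybridised to 1 Affymetrix Mouse Gene ST array per sample. The log2 values are those the authors deposited. Per the submitters' processing notes RMA and affy made them, and versions and genome build are not given in the sources used here. RMA subtracts background, normalises by quantiles and summarises probe sets, so small or low-level differences are compressed. Symbols came from the platform annotation. Of 21225 probe sets 986 were unnamed and counted apart.

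In R 4.3.3 with limma 3.58.1, 1 mean per group was fitted over all 14 arrays (eBayes with a trend), two-sided, with Benjamini-Hochberg adjustment over 20239 genes and calls at an adjusted p under 0.05. The script was tested on simulated data. Errors of differences are SE and those of means are SD. Depth does not apply to arrays, and their number limits the precision.

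Genes named are Sh2b3, the top 24 higher and top 16 lower called genes by size where the ages do not overlap, called members of the lists (6 by p where more), fixed signalling members, interaction genes and those at the threshold. Others are stated as chosen after their values were seen. Predicted genes, RIKEN clones and small RNAs were counted only, 11 of the 272. The members and lists were chosen with earlier results of these data known. Alternatives changed the samples, variance prior, normalisation, filter, array weights, replicate block, sex-linked signal and single arrays. The protein comparison of paralogs that was planned was not made, because no protein sequences were at hand. Ddx3y was not analysed here.

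The replicate numbers were checked for pairing. Deviations from the group means of same-numbered old and young Lnk-null arrays correlated at 0.053, 0.062 and 0.068 across genes. Those of differently numbered arrays correlated at -0.153 to 0.121. The numbers were not taken to pair the arrays, though such values do not exclude a pairing.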

Additional observations from a re-analysis of the deposited data

Results flagged for a closer look

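Among 188 named genes, 14 had 1 old Lnk-null array far from the other 3, by Dixon's ratio, where chance flags about 1 in 20. Old array 2 stood apart in Cldn5 (5.65, nearest 6.62), Rgs7bp (3.46, nearest 3.70), Ern1 (7.92, nearest 7.73), Cdkn1a (5.04, nearest 5.51), Fdft1 (5.71, nearest 6.37) and Cd86 (3.62, nearest 3.45). Old array 1 did so in Adgrl4 (11.19, nearest 11.01), Plscr1 (9.65, nearest 9.74) and Dhcr7 (7.14, nearest 7.43). Old array 3 did so in Mlec (8.31, nearest 8.59), Mvd (5.12, nearest 4.91) and Cd3e (3.68, nearest 3.91). Old array 4 did so in Uba7 (10.16, nearest 9.93) and Lbr (8.15, nearest 8.06). In Cldn5 and Plscr1 even the array that stood apart lay above all young arrays.

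The age change of Aldh1a1 differed between genotypes by the interaction test, at -1.0 log2 units for Lnk-null minus wild type (adjusted p = 0.00061). Of 986 probe sets without a gene symbol, which no comparison used, 10 were called for age in Lnk-null cells when all probe sets were tested together.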

How the results depend on the processing

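The counts of Lnk-null ageing fell most in fits that left out, or adjusted for, the arrays that differ in sex. Leaving those arrays out keeps only 1 young Lnk-null array, and the Y-linked level partly follows age in Lnk-null cells. Such fits therefore lose calls through larger SEs as well, and the part of sex in the loss cannot be told apart. Without young Lnk-null arrays 1 and 2 (chosen after seeing the data) 60 genes were called, 45 higher and 15 lower, and 2 in the interaction. Adjusted for each array's Y-linked level, the counts were 74, 59, 15 and 3. Without the 5 arrays with Xist signal they were 71, 56, 15 and 0, the interaction then holding 1014 genes at an unadjusted p under 0.05 in limma. These fits called 44, 59 and 53 of the same 272 genes. Array weights called 428 genes, all 272 among them, with 134 lower. With array SD as a covariate 264 were called, and the interaction called 0 (886 at an unadjusted p under 0.05). Leaving out each of the 14 arrays in turn gave 152 to 326 genes, 122 to 234 higher, 30 to 92 lower and 1 to 6 in the interaction, with the lowest counts without young Lnk-null arrays 1 (152) and 2 (167) and the 6 without young Lnk-null array 3. The other settings tried (Lnk-null arrays alone, no trend, robust prior, quantile normalisation, filter on low values, all probe sets, no X or Y genes) gave 259 to 281 genes and 1 in the interaction where it could be fitted. Of the 272 genes they shared 211 to 271. The fewest were shared with the filter on low values (211 of 266 called, over 10120 genes) and with Lnk-null arrays alone (219 of 264 called). With the replicate number as a block 255 genes were called, 195 higher and 60 lower, 220 of them shared, and 1 in the interaction. Whether the numbers pair the arrays is not settled by the correlations. Old array 2, for example, correlated at 0.071 with young array 3 and at 0.062 with young array 2. No named gene changed direction in a fit that called it. Of 121 named called genes, 29 stayed called without young arrays 1 and 2 and between 76 and 119 without any 1 array. With 3 young arrays, 2 of another sex than all old ones, age and sex in Lnk-null cells cannot be fully told apart.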

Other observations

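The groups below were chosen after their values were seen, so their counts are descriptions without a test of the group. The enzymes of cholesterol synthesis were lower in old Lnk-null cells as a whole. All 15 measured enzymes lay below 0, between -0.86 and -0.21 at a median of -0.39, and in 10 of them every old array lay below every young array, which held for 4.99% of all genes. Cyp51, which removes a methyl group from lanosterol, read 6.59, 6.47, 6.80 and 6.51 in old and 7.39, 7.26 and 7.51 in young cells and fell by 0.80 ± 0.15 (adjusted p = 0.0096). Msmo1, the methyl sterol oxidase that acts after it, read 6.84, 6.27, 7.17 and 6.77 and 7.73, 7.31 and 7.84 (-0.86 ± 0.23, adjusted p = 0.089). Squalene epoxidase (Sqle) read 7.13, 6.96, 7.20 and 6.96 and 7.77, 7.55 and 7.95 (-0.70 ± 0.17, adjusted p = 0.063). Cyp51 alone of the 15 passed. Young array 3 was the highest young array in these 3 genes, and against it alone the median of the 15 was -0.60. Stard4, which carries sterols between membranes, fell by 0.51 ± 0.12, and Scd2 fell too, while the sterol sensor Insig1 (-0.68 ± 0.24, adjusted p = 0.28), the regulator Srebf2 (-0.33 ± 0.09) and fatty acid synthase (Fasn, -0.20 ± 0.11) did not pass. In wild type the median of the 15 enzymes was 0.05, but none of the 15 differed between genotypes in the interaction (Cyp51 had an adjusted p of 0.33 and Msmo1 of 0.55).

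Dlk1 and Meg3, neighbours in an imprinted region where the paternal copy gives Dlk1 and the maternal copy gives Meg3, both rose. Dlk1, a Notch-related surface protein, read 7.84, 7.05, 7.59 and 6.10 in old and 5.26, 5.56 and 5.87 in young cells (1.58 ± 0.32, adjusted p = 0.015), and all old arrays lay above all young. Rtl1 (0.05 ± 0.11) and Dio3 (-0.07 ± 0.10), of the same region, did not pass. Wild-type differences were 0.39 for Dlk1 and -0.12 for Meg3, and the interaction of Dlk1 had an adjusted p of 0.64. Of 20218 pairs of neighbouring genes 13 were called on both sides, 10 with both higher, 1 with both lower and 2 in opposite directions. Besides Dlk1 with Meg3, Mt2 with Mt1 and Plscr1 with Plscr2, they included the C-type lectins Clec1b (0.69), Clec9a (1.2) and Clec1a (1.34), the chemokine-binding Ackr1 (1.33) with the adhesion molecule Cadm3 (0.95), and the protocadherins Pcdhb16 (0.99) and Pcdhb17 (0.81). Among 58 clustered protocadherins Pcdhga1 (1.69) and Pcdhgb2 (1.11) also rose, and none fell. Probes of such near-identical genes may share signal.

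Other genes picked after their values were seen are given singly. The calcium-binding S100a6 (1.14) and S100a4 (1.03), the homeobox gene Hoxb8 (1.36), the matrix protein Tgfbi (1.64), the endocytic protein Ehd3 (1.48), the short-chain fatty acid receptor Ffar2 (1.59) and the nuclear receptor Rorb (1.37) rose. So did Tnip3 (0.98), Irak3 (0.47), Cd274 (0.52) and Lag3 (0.58). The cytokine Il15 fell by 0.73 and the costimulatory molecule Cd86 by 0.83. Of these genes Ehd3, Tnip3 and Irak3 were called without young arrays 1 and 2.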
